A study of Drosophila melanogaster with 15 samples.

Results

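Messenger RNA of SL2 cells after MSL2 RNAi was set against messenger RNA of SL2 cells after control RNAi, with 1 library on each side. SL2 is a Drosophila melanogaster line of male embryonic origin, and both cultures had received double-stranded RNA for 6 days at 25 °C. The labels do not name the target of the control RNA, and the deposited control table is marked gfp. The third messenger RNA library of the series, from SL2 cells after CLAMP RNAi, is given beside the values it helps to place. CLAMP is a zinc finger protein. The remaining 12 of the 15 samples of the series were not analysed here.

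The male-specific lethal (MSL) complex binds the single X chromosome of Drosophila males, where its acetyltransferase subunit MOF modifies histone H4 on transcribed genes and X-linked transcription is raised. MSL2 is the subunit made in males and not in females, and it is needed for assembly of the complex on the X. The noncoding RNAs roX1 and roX2 are part of the complex, are encoded on the X, and depend on the complex for their own level.

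The 22353 transcripts listed belong to 15139 genes, and a gene was represented by its transcript with the highest mean read count in the 3 messenger RNA libraries. Levels are given as RPKM, reads per kilobase of transcript scaled by the library total. A mean RPKM of at least 1 was reached by 7485 genes, and these are the genes described. The X holds 1292 of them, chromosome 4 holds 57, and 6062 lie on the major autosomal arms (2L, 2R, 3L and 3R). The remaining 74 had no assigned arm. Just under this limit were Sr-CIV and GABA-B-R2 at mean RPKM values of 0.991 and 0.998, and just over it CG41520 and Obp49a at 1.00 and 1.01. Ratios are given as the log2 of MSL2 RNAi over control RNAi after 0.1 was added to each RPKM, so that a negative value means lower after MSL2 RNAi and low genes are understated.

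The library totals were nearly equal, at 67844405 after MSL2 RNAi, 68301197 after CLAMP RNAi and 68036170 after control RNAi. With 1 library per group, no difference has a replicate check and there is no p-value. "Lower" and "higher" describe these libraries, and intervals cover counting error only. Markers of hemocytes, the insect blood cells that SL2 resembles, were abundant. Of 19 such genes, 17 passed the level limit, and their summed RPKM was 6899 after MSL2 RNAi, 9167 after CLAMP RNAi and 7158 after control RNAi. The summed RPKM of 5 fat body markers was 0.638 after MSL2 RNAi and 0.617 after control RNAi. Among 4 neuron markers only elav passed the limit, and nSyb, Syt1 and para were near 0. Of muscle markers only up passed it, at 2.00 after MSL2 RNAi and 2.18 after control RNAi, and of germline markers only the piRNA pathway gene aub, at 57.4 and 59.6 in the same order. In such bulk samples, fewer cells of a type and less RNA per cell cannot be told apart.

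The targeted gene was lower in its own library. The transcript of msl-2 (CG3241, arm 2L) had 1347 reads after MSL2 RNAi, 5085 after CLAMP RNAi and 5192 after control RNAi, which is an RPKM of 5.16, 19.4 and 19.8 in the same order. Its read ratio of MSL2 RNAi to control RNAi was 0.260 (exact 95% counting interval 0.245 to 0.276). The log2 ratio of RPKM was −1.92. Some msl-2 reads thus remained after MSL2 RNAi, and protein was not measured.

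The roX RNAs were the other members of the complex that differed by more than 1.5-fold. On the X, roX2 had 140 reads after MSL2 RNAi, 463 after CLAMP RNAi and 684 after control RNAi, a ratio to control of 0.205 (0.170 to 0.247). The longer and more abundant roX1 had 24384 reads after MSL2 RNAi, 65153 after CLAMP RNAi and 72863 after control RNAi, a ratio of 0.336 (0.331 to 0.341). Each roX RNA was therefore lowest after MSL2 RNAi, with log2 ratios of −2.22 for roX2 and −1.57 for roX1.

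Messages for the other protein subunits of the complex were near the control level. The scaffold gene msl-1 stood at a log2 ratio of 0.00 and mle, which encodes the RNA helicase subunit, at −0.06. The chromodomain subunit gene msl-3 stood at 0.17, with 2405 reads after MSL2 RNAi and 2140 after control RNAi. The acetyltransferase gene mof, which is itself X-linked, stood at −0.18, with 2987 reads after MSL2 RNAi and 3389 after control RNAi. Clamp, on arm 2L, stood at 0.01. None of these 5 genes differed by 1.5-fold.

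**Figure D1:**
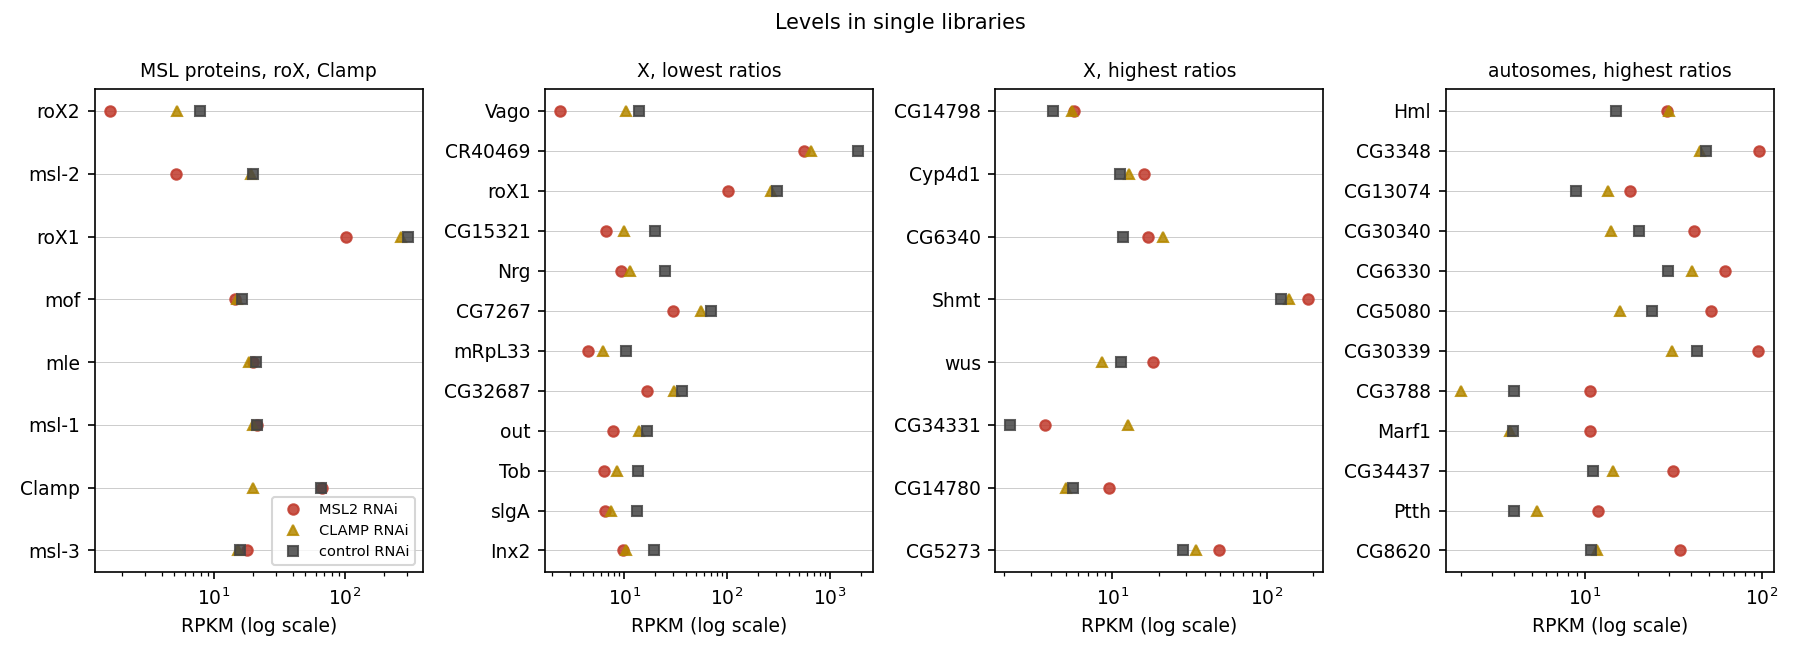
RPKM on a log axis in the MSL2 RNAi (red circles), CLAMP RNAi (yellow triangles) and control RNAi (black squares) libraries, 1 library each, for the MSL genes with roX1, roX2 and Clamp, and for the X-linked and autosomal genes with the most extreme ratios. The red points of msl-2, roX1 and roX2 lie well left of the black ones, whereas those of msl-1, msl-3, mle, mof and Clamp lie close to them.

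X-linked genes were lower than autosomal genes almost throughout the chromosome. Their median log2 ratio was −0.33, that of genes of the major autosomal arms was 0.03, and X-linked transcripts stood at 0.781 of the autosomal ones relative to control. On the X, 1182 of 1292 genes had a ratio under the autosomal median and 1159 were lower than in control. A ratio at least 1.5-fold lower was found for 5.32% of all described genes. It was found for 193 X-linked genes, or 14.9% (13.0 to 17.0), and for 193 genes of the major arms, or 3.18% (2.76 to 3.66). A ratio at least 1.5-fold higher was found for 2.53% of all described genes, for 6 on the X (0.464%) and for 178 on the major arms (2.94%). At 2-fold, 0.975% of all genes were lower and 0.588% higher. X-linked genes made up 22 of those lower and 0 of those higher, and genes of the major arms 50 and 44. The counts of higher genes depended on the level filter. With a mean RPKM of 5 or more, 62 autosomal genes were 1.5-fold higher and 10 genes 2-fold higher, and without a filter 579 and 170, with 39 on the X at least 1.5-fold higher. The autosomal count of 1.5-fold lower genes was 109 and 421 in these settings, and the X-linked count 148 and 266. With a pseudocount of 1 the X-linked count was 135.

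The difference was present across the whole distribution of ratios. It was −0.30, X minus autosomes, at the 5th percentile, −0.36 at the 25th, −0.36 at the median, −0.32 at the 75th and −0.29 at the 95th. The spread was similar, with an interquartile range of 0.32 on the X and 0.29 on the autosomes. For 707 genes on the X, or 54.7%, the ratio was under the 10th percentile of the autosomal ratios.

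**Figure D2:**
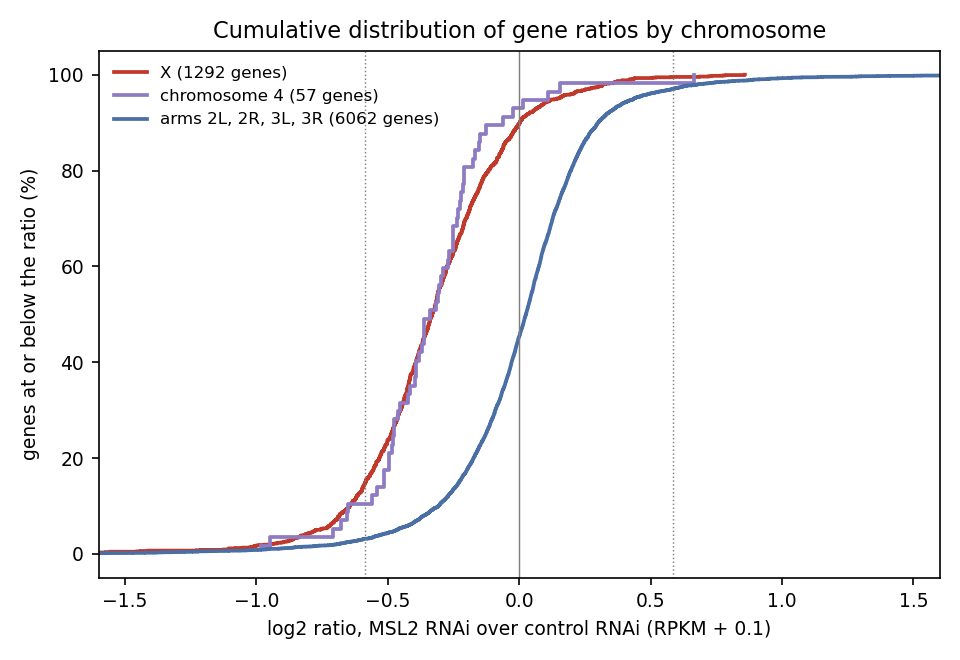
Cumulative percentage of genes (vertical axis) against the log2 ratio of MSL2 RNAi over control RNAi (horizontal axis) for the X (1292 genes), chromosome 4 (57 genes) and the major autosomal arms (6062 genes). Dotted lines mark 1.5-fold, and a few ratios lie beyond the axis. The X and chromosome 4 curves run left of the autosomal curve over most of their height, with medians of −0.33, −0.34 and 0.03.

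The shift was also seen without ratios of single genes. X-linked genes took 14.4% of the reads of chosen transcripts after MSL2 RNAi, 17.2% after CLAMP RNAi and 17.5% after control RNAi. The median X-linked RPKM was 16.2 after MSL2 RNAi, 19.4 after CLAMP RNAi and 20.6 after control RNAi. The autosomal median RPKM was 21.7, 20.8 and 21.8 in the same order, so the X:autosome ratio of medians was 0.748 after MSL2 RNAi, 0.934 after CLAMP RNAi and 0.946 after control RNAi. Set against the CLAMP RNAi library in place of control, X-linked genes after MSL2 RNAi were lower than autosomal ones by a similar amount, a log2 difference of −0.35. CLAMP RNAi over control gave 0.00. These 3 comparisons share libraries and are not independent of each other.

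The difference was similar at all expression levels. In 5 equal classes of genes ordered from low to high mean RPKM it was −0.32, −0.32, −0.37, −0.36 and −0.39. The share of X-linked genes at least 1.5-fold lower was 23.1% in the lowest class and 11.4% in the highest. The matching autosomal shares were 8.58% and 0.876%. The interquartile range of X-linked ratios was 0.50 in the lowest class and 0.28 in the highest. Low genes were thus scattered more widely around a similar median. Noncoding genes on the X (28 genes, median −0.38) and protein-coding ones (1258 genes, median −0.33) had similar medians. However, 10 of these 28 and 181 of these 1258 were at least 1.5-fold lower. On the autosomes, noncoding genes had a median of −0.07, with 20 of 91 at least 1.5-fold lower. Protein-coding ones there had a median of 0.03, with 169 of 5945.

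Along the chromosome the lower ratios were spread over its whole length. The described X-linked genes were divided in gene order into 20 stretches of 64 or 65 genes. Their medians ran from −0.50 to −0.24, and every one was lower than the lowest of the 80 stretches of the major arms, which ran from −0.22 to 0.13. The highest X-linked stretch, the 18th, reaches from CG6659 to CG14210, and 58 of its 64 genes lay below the autosomal median. At its ends CG6659 stood at −0.10 and CG14210 at −0.26. The lowest autosomal stretch, at −0.22, is the first of 2R, from CG41257 to Debcl.

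The lowest X-linked stretch was the 15th, from ArgRS to Cdc50. In it 63 of 64 genes lay below the autosomal median and 22, or 34.4%, were at least 1.5-fold lower. In the rest of the X this was 171 of 1228 genes, or 13.9%. At its ends the arginyl-tRNA synthetase gene ArgRS stood at −0.41 and Cdc50 at −0.38. Between them lie sun (−0.97), an ATP synthase subunit gene, shi (−0.90), the dynamin gene, and the ethanolamine kinase gene eas (−0.85). The ATR kinase gene mei-41 stood at −0.75. Of these, eas and mei-41 were chosen after their values were seen. For CLAMP RNAi over control, the median of the same stretch was −0.12. The stretch was picked as the lowest of 20, so its rank is a description of these libraries. CG42353 and CG42354 in it have the same reads and are counted as separate genes.

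**Figure D3:**
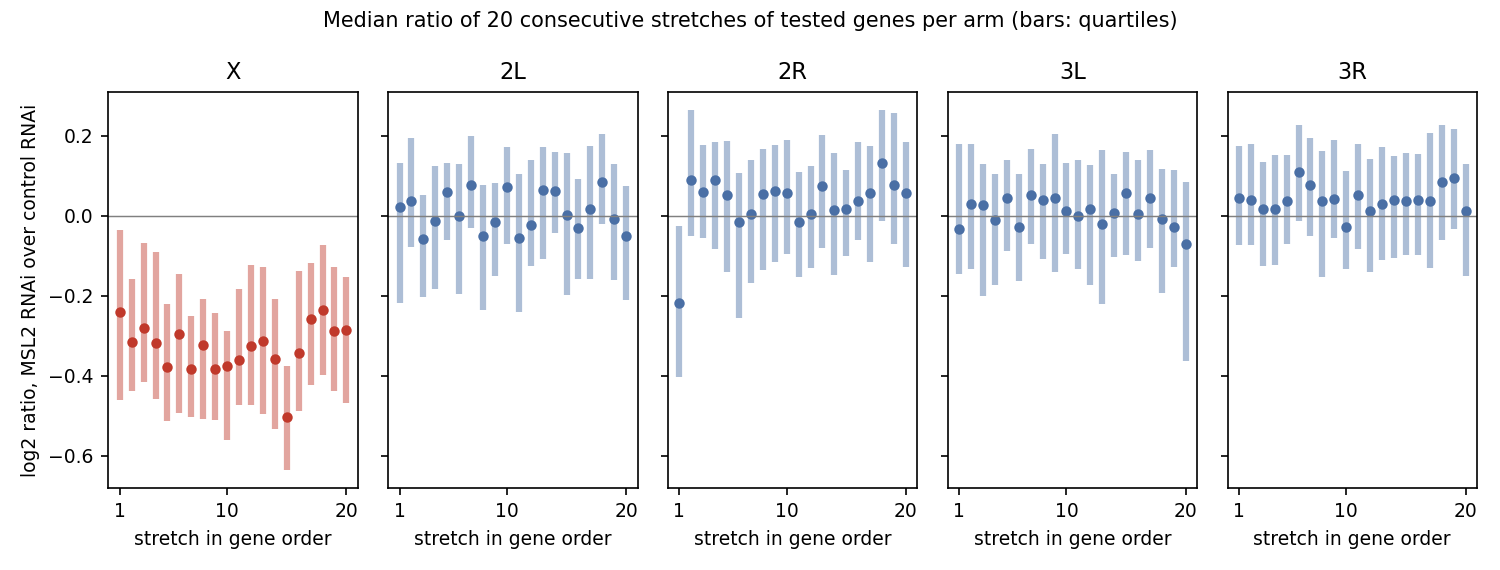
Median log2 ratio of MSL2 RNAi over control RNAi (points) and quartiles (bars) for 20 consecutive stretches of described genes on the X (64 or 65 genes each) and on each major autosomal arm (66 to 91 genes each), in gene order. All X-linked medians lie between −0.50 and −0.24, below the 80 autosomal medians.

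Among X-linked genes with a mean RPKM of 5 or more, the 12 with the lowest ratios had varied functions. Vago, which encodes a secreted antiviral factor, had 121 reads after MSL2 RNAi, 534 after CLAMP RNAi and 711 after control RNAi, a ratio to control of 0.171 (0.140 to 0.207). It was lowest in the MSL2 RNAi library and was the X-linked gene with the most negative value, −2.50. The noncoding CR40469 had 9189 reads after MSL2 RNAi, 10827 after CLAMP RNAi and 30847 after control RNAi. Nrg, the gene of the adhesion protein Neuroglian, had 2799 reads after MSL2 RNAi, 3444 after CLAMP RNAi and 7535 after control RNAi. For CR40469 and Nrg the control library was the one that stood apart, and the log2 ratios were −1.74 and −1.41 for MSL2 RNAi and −1.52 and −1.13 for CLAMP RNAi.

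The same held for other genes of the 12. Inx2, which encodes a gap junction innexin, had 1539 reads after MSL2 RNAi, 1685 after CLAMP RNAi and 3141 after control RNAi. The proline dehydrogenase gene slgA had 1664 reads after MSL2 RNAi, 1927 after CLAMP RNAi and 3426 after control RNAi. Both were lower in each knockdown library, Inx2 at a read ratio to control of 0.491 after MSL2 RNAi and 0.534 after CLAMP RNAi. CG7267 (1284 reads after MSL2 RNAi, 2431 after CLAMP RNAi and 3024 after control RNAi), CG32687 (2656, 4878 and 5836 in the same order) and out (1506, 2720 and 3272) showed the other pattern. Their CLAMP RNAi values were closer to control, at read ratios of 0.801 for CG7267, 0.833 for CG32687 and 0.828 for out. After MSL2 RNAi each was more than 2-fold lower than in control. The remaining members were roX1, the mitochondrial ribosomal protein gene mRpL33 (−1.21), Tob (−1.08) and CG15321 (−1.56), an older gene model that the annotation table assigns to nej. The mRpL33 value rests on 96 reads after MSL2 RNAi and 226 after control RNAi, from a transcript of 319 bases. After CLAMP RNAi it had 135 reads (−0.74 against control).

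A small group of X-linked genes was not lower. In all, 110 lay at or above the autosomal median, 68 of them with a mean RPKM of 5 or more. CG5273 had 7233 reads after MSL2 RNAi, 5123 after CLAMP RNAi and 4202 after control RNAi, a ratio of 1.73 (1.66 to 1.79). Shmt, the serine hydroxymethyltransferase gene, had 25123 reads after MSL2 RNAi, 19046 after CLAMP RNAi and 16885 after control RNAi. Both were highest after MSL2 RNAi, as were CG14780 (log2 0.77), the chaperone-like transmembrane protein gene wus (0.69) and the cytochrome P450 gene Cyp4d1 (0.51). CG34331 (0.72) was highest after CLAMP RNAi, with 164 reads after MSL2 RNAi, 564 after CLAMP RNAi and 98 after control RNAi. CG6340 (0.52) and CG14798 (0.44) complete the 8 highest.

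X-linked and autosomal genes of shared complexes and pathways mostly parted in the direction seen over all described genes. Of 40 gene lists, 19 had at least 3 described members on the X and 3 on the major arms, and in 17 of these the X-linked median was below the autosomal one. The lists share some members and each is described here with its X-linked and autosomal genes apart. Over all described genes, the background for these values is a median of −0.33 on the X and 0.03 on the major arms.

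Among genes of protein synthesis, aminoacyl-tRNA synthetase genes had a median log2 ratio of −0.30 for 3 X-linked members and 0.27 for 15 autosomal ones. All 15 autosomal members lay above the autosomal median, between 0.03 and 0.47. Of them 0 reached 1.5-fold, beside 2.94% of autosomal genes at least 1.5-fold higher. AspRS had 26166 reads after MSL2 RNAi, 19801 after CLAMP RNAi and 18974 after control RNAi, while the X-linked LysRS had 9467, 12179 and 11683 in the same order. The autosomal gene was thus highest and the X-linked one lowest after MSL2 RNAi. For CLAMP RNAi over control the autosomal median of the list was −0.04.

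Translation initiation factors followed the same pattern, with a median of −0.25 for 6 X-linked and 0.22 for 29 autosomal members, 25 of which lay above the autosomal median. The X-linked eIF5 stood at −0.44 and eIF4H1 at −0.40. The autosomal eIF2Bdelta, a subunit of the factor that recharges eIF2 with GTP, stood at 0.55 and eIF6 at 0.46. Its X-linked partner subunit eIF2Bepsilon stood at −0.31. The eIF2Bdelta gene had 14667 reads after MSL2 RNAi, 11509 after CLAMP RNAi and 10017 after control RNAi. The eIF2Bepsilon gene had 5129, 6255 and 6386 in the same order.

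Cytosolic ribosomal protein genes were shifted less. They had a median of −0.19 for 10 X-linked and 0.11 for 63 autosomal members, and 43 of the 63 lay above the autosomal median. For CLAMP RNAi over control the autosomal median of the list was also 0.11, and for MSL2 RNAi over CLAMP RNAi it was 0.01. Of the X-linked members, RpL36 stood at −0.49 and RpL35 at −0.45. A 1.5-fold fall was reached by 0 of 10, beside 14.9% of X-linked genes. Among autosomal members RpL18 was high at 0.59. RpL39, with 4209 reads after MSL2 RNAi, 7256 after CLAMP RNAi and 12660 after control RNAi, and RpL38 (−0.69) were low. RpL39 is a transcript of 289 bases. X-linked transcripts under 400 bases had a median of −0.24 and autosomal ones −0.15, beside −0.33 and 0.03 for longer transcripts. On the autosomes 34 of 163 such short transcripts were at least 1.5-fold lower, beside 159 of 5899 longer ones. On the X these were 9 of 36 and 184 of 1256. Mitochondrial ribosomal protein genes had a median of −0.33 for 12 X-linked and 0.08 for 61 autosomal members.

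Other complexes parted in the same direction. Proteasome genes had a median of −0.29 for 4 X-linked members, led by Prosalpha4 (−0.40) and Rpt3 (−0.31), and of 0.12 for 27 autosomal ones. The chaperonin CCT, a ring that folds actin and tubulin, had CCT2 (−0.34) and CCT6 (−0.21) on the X, while all 6 autosomal subunit genes lay between 0.10 and 0.22. The median of these 6 was 0.10 for CLAMP RNAi over control and 0.04 for MSL2 RNAi over CLAMP RNAi. Nuclear pore genes had a median of −0.29 for 4 X-linked members, with Nup153 at −0.48, and of 0.08 for 19 autosomal ones. In RNA polymerase II the X-linked largest subunit gene Polr2A stood at −0.46, with 40154 reads after MSL2 RNAi, 51846 after CLAMP RNAi and 55486 after control RNAi. The 10 autosomal subunit genes had a median of 0.00, with Polr2K lowest at −1.02. This transcript of 332 bases had 246 reads after MSL2 RNAi, 317 after CLAMP RNAi and 503 after control RNAi.

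**Figure D4:**
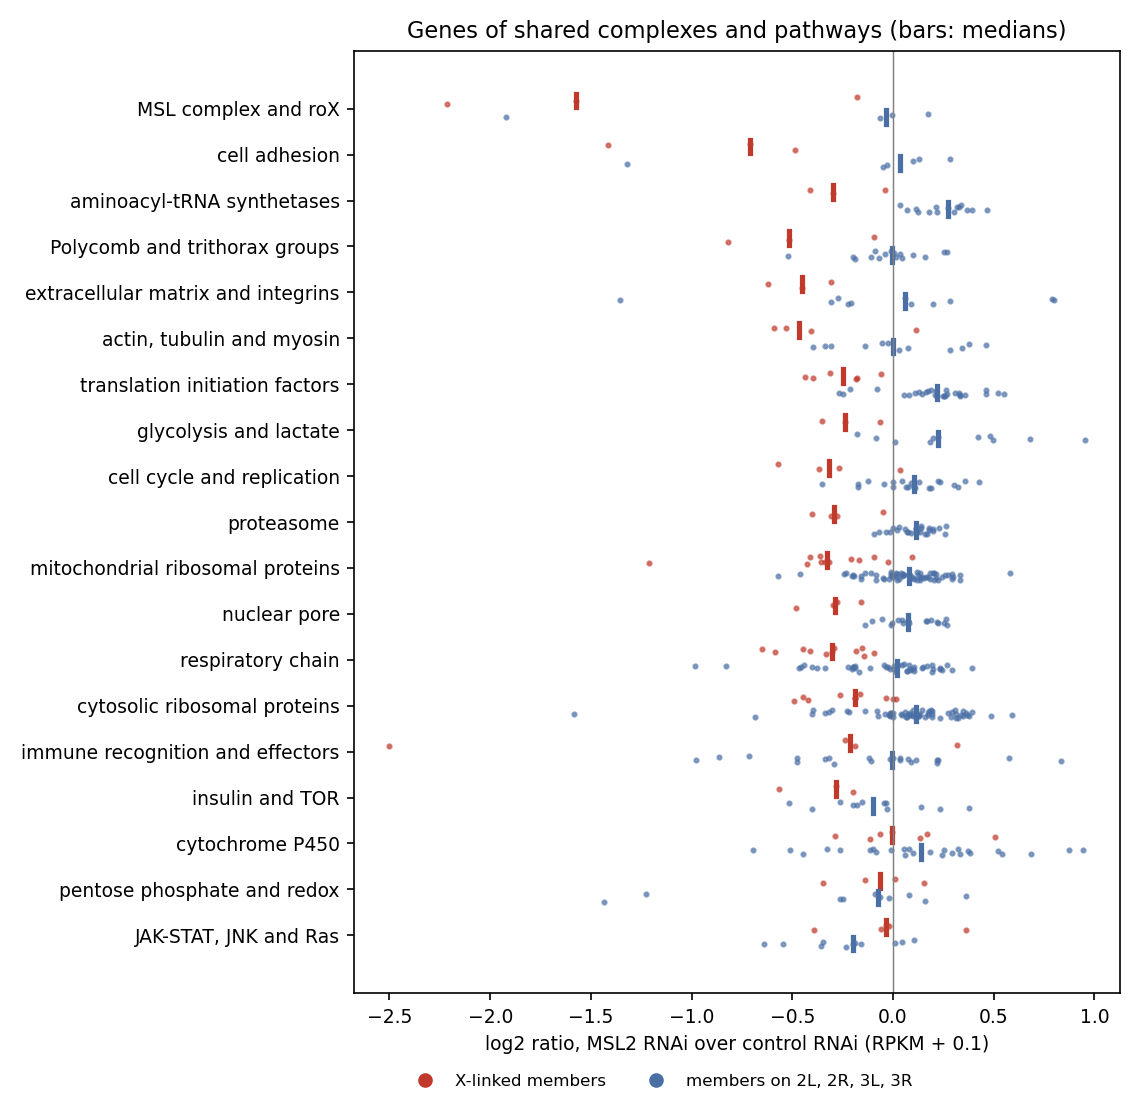
Log2 ratio of MSL2 RNAi over control RNAi for described members of the 19 gene lists with at least 3 members on the X and 3 on the major arms, with X-linked members in red above autosomal members in blue, and bars at the medians. In 17 lists the red bar lies left of the blue one, for instance at −0.30 and 0.27 for aminoacyl-tRNA synthetases, and in the lists of JAK-STAT, JNK and Ras and of pentose phosphate and redox genes it does not.

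Mitochondrial energy genes parted in the same direction. The respiratory chain had a median of −0.30 for 11 X-linked members, all below the autosomal median, and of 0.02 for 46 autosomal ones. On the X, UQCR-14 of complex III stood at −0.65 and the complex I gene ND-ASHI at −0.59. Among autosomal members the short complex I genes ND-AGGG (−0.98) and ND-MLRQ (−0.83) were lowest. In ATP synthase the X-linked sun had 572 reads after MSL2 RNAi, 1084 after CLAMP RNAi and 1130 after control RNAi, and ATPsyndelta stood at −0.53. The 12 autosomal members had a median of 0.12, beside 0.11 for CLAMP RNAi over control and −0.02 for MSL2 RNAi over CLAMP RNAi. The extreme there was ATPsynbetaL (0.74), a copy of the catalytic subunit gene with 1561 reads after MSL2 RNAi and 931 after control RNAi.

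Glycolysis held the highest autosomal values of the metabolic lists. Its 11 autosomal members had a median of 0.22, with 8 above the autosomal median. Ldh, the lactate dehydrogenase gene, had 33136 reads after MSL2 RNAi, 11873 after CLAMP RNAi and 17159 after control RNAi. The phosphofructokinase gene Pfk had 7353, 5052 and 4590 in the same order. Both were highest after MSL2 RNAi, and Ldh and Pfk were the list's 2 members past 1.5-fold. A rise of that size was seen in 2.94% of autosomal genes. The phosphoglycerate mutase gene Pglym78 stood at 0.50 and the aldolase gene Ald1 at 0.48. The 3 X-linked members were lower, with Pdha, a pyruvate dehydrogenase subunit gene, at −0.35, Gapdh2 at −0.24 and the hexokinase gene Hex-A at −0.06.

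Lipid genes were on the low side. All 12 described genes of fatty acid synthesis and fat storage were autosomal, with a median of −0.13 and 10 below the autosomal median. Agpat2, an acyltransferase gene of phospholipid and fat synthesis, had 145 reads after MSL2 RNAi, 1105 after CLAMP RNAi and 788 after control RNAi, a ratio of 0.185 (0.153 to 0.221). No other autosomal gene with a mean RPKM of 5 or more had a lower ratio. The diacylglycerol acyltransferase gene mdy stood at −0.68, the fatty acid synthase gene FASN1 at −0.37 and the acetyl-CoA carboxylase gene ACC at −0.23. For ACC the CLAMP RNAi library was lower still, at −0.60 against control.

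Signalling and cytoskeletal genes showed both patterns. In the list of JAK-STAT, JNK and Ras pathway genes the X-linked median (−0.03 over 5 genes) was above the autosomal one (−0.20 over 11 genes). On the X, the Janus kinase gene hop stood at −0.39 and upd3, the gene of a ligand of this pathway, at 0.36, and the autosomal MAP kinase gene rl at −0.64 and the adaptor gene drk at −0.55. This list and that of pentose phosphate and redox genes (−0.06 for 4 X-linked and −0.08 for 10 autosomal members) were the exceptions among the 19. Cytoskeletal genes on the X included Arp2 of the actin-nucleating complex (−0.59), moesin Moe (−0.53) and the myosin light chain gene sqh (−0.41). The actin gene Act5C, also X-linked and the 4th described member there, stood at 0.12, with 529137 reads after MSL2 RNAi, 437466 after CLAMP RNAi and 489709 after control RNAi. The 12 autosomal cytoskeletal genes had a median of 0.00, with the tubulin genes alphaTub84B (0.46), betaTub56D (0.38) and alphaTub84D (0.34) above control and the cofilin gene tsr (−0.40) below it. Among Polycomb and trithorax group genes the 3 X-linked members were nej, the CREB-binding protein gene (−0.82), ph-p (−0.52) and ph-d (−0.10). The 16 autosomal members had a median of −0.003, from trx at −0.52 to Sce at 0.27. Of the insulator protein genes, the 1 X-linked member stood at 0.27 and the 9 autosomal ones had a median of −0.01.

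The autosomal genes with the most extreme ratios were diverse in function. ClC-a, a chloride channel gene, had 244 reads after MSL2 RNAi, 3171 after CLAMP RNAi and 1027 after control RNAi. It was lowest after MSL2 RNAi and highest after CLAMP RNAi. The glutamate dehydrogenase gene Gdh had 924 reads after MSL2 RNAi, 2131 after CLAMP RNAi and 2449 after control RNAi, and NijA, which encodes a ninjurin, had 658, 1684 and 1701 in the same order. These were low after MSL2 RNAi and near control after CLAMP RNAi. For others the control library was the one that stood apart. The pyruvate carboxylase gene PCB had 2088 reads after MSL2 RNAi, 1397 after CLAMP RNAi and 5483 after control RNAi. The peroxiredoxin gene Prx6c had 429, 496 and 1172 in the same order, and has a close copy, Prx6b (−1.23), with which its reads could have been mixed. The integrin subunit gene scb, with 1768 reads after MSL2 RNAi, 3062 after CLAMP RNAi and 4584 after control RNAi, lay between these patterns. The small RNA gene sncRNA:765 rests on 41 reads after MSL2 RNAi and 122 after control RNAi, from a transcript of 46 bases.

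Among the highest autosomal genes, CG8620 had 1851 reads after MSL2 RNAi, 634 after CLAMP RNAi and 584 after control RNAi, a ratio of 3.18 (2.89 to 3.49). Ptth, which encodes the prothoracicotropic hormone, had 513 reads after MSL2 RNAi, 233 after CLAMP RNAi and 174 after control RNAi. Marf1, an RNA-regulating gene of the germline, had 3225, 1148 and 1200 in the same order. All of these were highest after MSL2 RNAi. So was CG34437, with 1875 reads after MSL2 RNAi, 862 after CLAMP RNAi and 662 after control RNAi. CG3788 (1.40), CG5080 (1.10), CG6330 (1.07), CG13074 (1.02) and CG3348 (0.99) were also among the 12 highest. CG30339 (1.15) and CG30340 (1.03) are next to each other on 2R among the described genes. Their reads were close, at 6613 and 6541 after MSL2 RNAi, 2158 and 2244 after CLAMP RNAi, and 2978 and 3202 after control RNAi. Whether the same reads were counted for both was not tested. The hemocyte marker Hml, which encodes hemolectin, had 23163 reads after MSL2 RNAi, 24140 after CLAMP RNAi and 11944 after control RNAi, and was thus lowest in control.

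Chromosome 4 was lower in both knockdown libraries. The median over its 57 genes was −0.34 for MSL2 RNAi over control and also −0.34 for CLAMP RNAi over control. For MSL2 RNAi over CLAMP RNAi it was 0.01. After MSL2 RNAi, 54 of the genes lay below the autosomal median. A ratio at least 1.5-fold lower was found for 6, or 10.5% (3.96 to 21.5), beside 5.32% of all described genes. The share of reads on chromosome 4 was 1.07% after MSL2 RNAi, 1.02% after CLAMP RNAi and 1.30% after control RNAi, so the control library was the highest. The lowest genes were CG31997 (203 reads after MSL2 RNAi, 308 after CLAMP RNAi and 407 after control RNAi) and yellow-h (586, 1127 and 1143 in the same order). The highest was the pseudogene CG32021 (0.66).

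The isoforms of a gene nearly always had similar ratios. Isoforms were kept with a mean RPKM of at least 1 and at least 100 reads over the MSL2 RNAi and control libraries. For 2526 genes with at least 2 such isoforms, the median range of log2 ratios over the isoforms of a gene was 0.01. The 90th percentile was 0.10. Reads in shared exons enter every isoform, so these ranges understate differences. A range of at least 2-fold was found for 1 gene (0.0396%) and of at least 1.5-fold for 7 genes (0.277%). Every isoform was at least 1.5-fold lower in 4.79% of the 2526 genes, and in 65 of the 435 X-linked ones, or 14.9%. At least 1 isoform was 1.5-fold lower and another was not in 1.98% of all, and in 23 X-linked genes, or 5.29%. The median range of these 23 was only 0.09, so many of them lie close to the limit on both sides.

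The gene past 2-fold was the X-linked CG6340. Its isoform RB had 2076 reads after MSL2 RNAi, 2621 after CLAMP RNAi and 1449 after control RNAi, while RA had 429, 754 and 704 in the same order. RB was thus above control and RA below it after MSL2 RNAi (log2 0.52 and −0.70), and the gene's place among the 8 highest X-linked genes above rests on RB. The X-linked htk, a chromatin protein gene, had a log2 ratio of −0.97 for the shorter RB and −0.31 for RA. The noncoding X-linked CR42491 had −0.14 for RA and 0.78 for RB.

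In the autosomal CAP and Nos, 1 isoform stood apart. For CAP, which encodes an adaptor protein, RP stood at −1.18 with 482 reads after MSL2 RNAi, 1446 after CLAMP RNAi and 1148 after control RNAi. The other isoforms of its 16 lay between −0.62 and −0.47. For Nos, the nitric oxide synthase gene, RB stood at 0.19, and the remaining 6 near 0.76. These 6 had 469 to 492 reads after MSL2 RNAi and 267 to 278 after control RNAi, at control RPKM values of 0.80 to 0.89. As reads in shared exons enter every isoform, they are not 6 separate measurements. CG6854, which has no assigned arm, had 0.52 for RA and −0.23 for RC. CG7646 and Kaz1-ORFB had few reads per isoform and wide counting intervals.

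**Figure D5:**
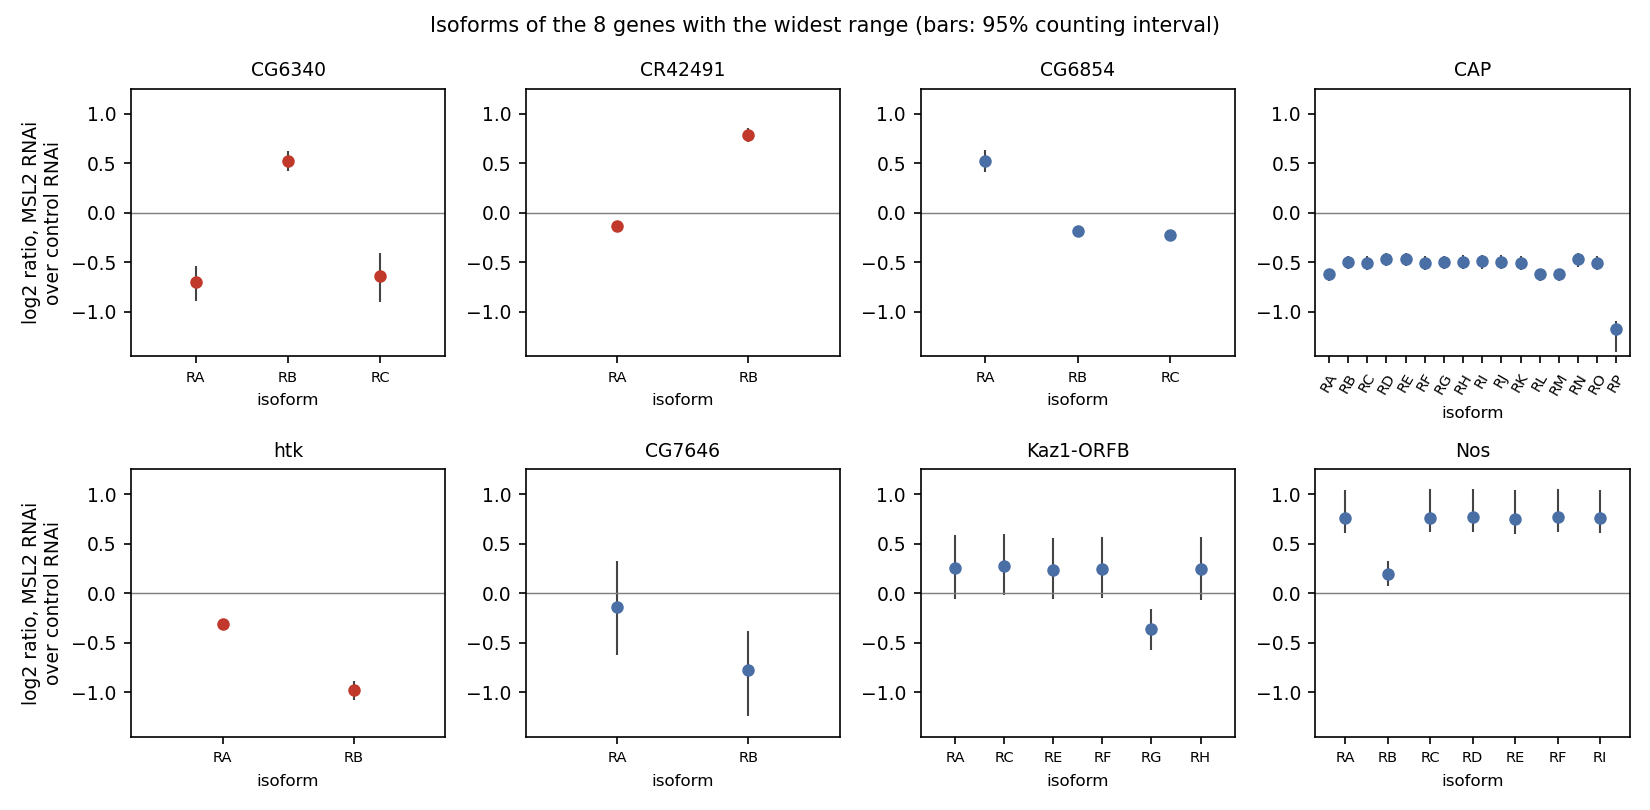
Log2 ratio of MSL2 RNAi over control RNAi for every isoform past the RPKM and read limits in the 8 genes with the widest range. X-linked genes are in red and others in blue, with exact 95% counting intervals as bars. In CG6340 isoform RB lies above 0 and RA and RC below it, and in CAP isoform RP lies apart from the others.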

How the data were processed

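Messenger RNA libraries of SL2 cells were made by a standard Illumina TruSeq procedure, per the labels. Each deposited file lists 22353 transcripts with an RPKM value, a whole read count, the transcript length and the library total. The deposited RPKM equals the authors' read count scaled by transcript length and that total, as recomputed. Per the submitters' processing notes, Bowtie and build dm3 were used. What the totals count, the counter, the annotation release, the use of strand and Bowtie's version: not given in the sources used here. Reads of overlapping, antisense or near-identical genes could not be told apart.

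Symbols, arms and gene order came from an annotation table of Release 6 plus ISO1 MT. That assembly is not the files' build, so no coordinates are printed. Of 15139 genes, 13783 matched by locus tag, 749 by a unique synonym and 607 not at all. Genes matched by synonym keep their own identifier.

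The chosen transcripts held 95.2% of the total after MSL2 RNAi, 95.6% after CLAMP RNAi and 95.0% after control RNAi. With 1 library per group no count model could be fitted, so genes were described by fixed folds of 1.5 and 2. Read ratios, scaled by the totals, and shares have exact Clopper-Pearson 95% intervals. Mates and PCR copies are not independent, so intervals may be too narrow.

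The text names the targets and MSL genes. With a mean RPKM of 5 or more it also names the 12 lowest and 8 highest X-linked genes, the 10 lowest and 12 highest autosomal genes, and the 2 lowest and 1 highest on chromosome 4. From a list described, the 1 to 4 members with the largest absolute log2 ratio are named, on the X and off it apart. It also names the 8 genes with the widest isoform range and the end genes of the extreme X-linked stretches. Members and lists were chosen with earlier results of these data known. Alternatives covered pseudocount, level filter, transcript choice, transcript length, scaling, name matching and isoform limits. Python 3.11.15, pandas 2.3.3, numpy 2.4.6, scipy 1.17.1 and matplotlib 3.10.9 were used, and scripts were tested on simulated data.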

Additional observations from a re-analysis of the deposited data

How the results depend on the processing

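No paired analysis was possible because each group has 1 library, and for the same reason no replicate could be left out. The X minus autosome difference of −0.36 was −0.33 with a pseudocount of 1 and −0.29 without a level filter. X-linked genes at least 1.5-fold lower numbered 193 at the main settings and 135 with a pseudocount of 1. They numbered 148 at a mean RPKM of at least 5 and 266 without the level filter. Upper-quartile scaling gave 167, and scaling to an autosomal median log2 ratio of 0 gave 221. With a pseudocount of 1, autosomal genes at least 1.5-fold lower numbered 124 and higher 110, and genes on the X and major arms at least 2-fold lower 44 and higher 22, beside 72 and 44 at a pseudocount of 0.1. Without the level filter, 421 autosomal genes were 1.5-fold lower and 579 higher, 39 X-linked genes were 1.5-fold higher, 202 genes were 2-fold lower and 170 higher, and the share of genes on the X under the autosomal median was 82.6%. At a mean RPKM of at least 5, these were 109 autosomal genes lower and 62 higher, 44 genes 2-fold lower and 10 higher, and 93.9%. With transcripts of at least 1 kb, 117 autosomal genes were 1.5-fold lower, 40 genes 2-fold lower and 28 higher. Fewer or more low genes enter under another level filter by construction, and a larger pseudocount shrinks the ratios of low genes. For the length limit fewer genes were counted, and the cause was not tested further. The X share of reads after MSL2 RNAi was 14.4% with the longest transcript per gene and 14.4% (17.4% in control) without roX1 and roX2. With 1.5-fold in place of 2-fold, 7 genes had isoforms that differed. The 1.5-fold isoform limit, the share without roX RNAs and matching by locus tag alone were chosen after seeing the data. Under the alternatives run, 0 results reversed, and 14 of 255 single-gene values moved beyond their counting interval. Promoter sequences were not analysed here.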

Other observations

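Some further gene groups had members on both sides of control. Cytochrome P450 genes had 33 described members, with a median log2 ratio of 0.00 for 7 on the X and 0.14 for 26 on the major arms. Cyp6a20 had 12571 reads after MSL2 RNAi, 4434 after CLAMP RNAi and 7833 after control RNAi, and was thus highest after MSL2 RNAi. Cyp28d1 stood at 0.94, Cyp6d5 at 0.87 and Cyp4d20 at −0.69. In the cell death list of 11 autosomal genes, the inducers rpr (587 reads after MSL2 RNAi, 789 after CLAMP RNAi and 1146 after control RNAi) and hid (542, 1357 and 1052 in the same order) were the 2 past 1.5-fold. A fall of that size was seen in 3.18% of autosomal genes. The level of hid was low, at an RPKM of 1.99 after MSL2 RNAi and 3.85 after control RNAi. In the order of the described genes, hid and rpr are next to each other on 3L. The genes on either side of this pair, CG7341 (−0.71) and CG32196 (−1.32), were also more than 1.5-fold lower. The low values there were thus not limited to the cell death list.

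Hemocyte markers were mixed. The secreted peroxidasin gene Pxn had an RPKM of 564 after MSL2 RNAi, 860 after CLAMP RNAi and 326 after control RNAi, whereas Nplp2 had 1082, 1829 and 2094 in the same order. Pxn and Hml were above control and Nplp2 (log2 −0.95) below it. The papilin gene Ppn stood at 0.80 and He at −0.61. Immune genes had a median of −0.21 for 4 X-linked members, which ran from −2.50 to 0.32. Their 22 autosomal members had a median of −0.01, with 10 above and 12 below the autosomal median and the highest at 0.83. Among immune genes the antimicrobial peptide genes were low in reads. CecA1 had 54 reads after MSL2 RNAi, 137 after CLAMP RNAi and 109 after control RNAi, and CecB (−0.85) and Anp (−0.87), next to it among the described genes and chosen after their values were seen, also stood low. In sex determination the splicing factor gene tra2 stood at 0.43 and the X-linked snf at −0.50. In insulin and growth signalling the X-linked Myc stood at −0.57, with 10628 reads after MSL2 RNAi, 14243 after CLAMP RNAi and 15806 after control RNAi, and the autosomal insulin receptor gene InR at −0.51.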
